A study of Mus musculus and Homo sapiens with 34 samples.

Results

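The gene set described here is Myc with 39 genes of ribosome biogenesis, 40 gene names in all. The 7 deposited count tables hold 48431 distinct gene identifiers, mouse and human together, in which a member is counted once for each species. Members of the set were chosen by name, as the rows whose gene name was one of the 40 (in upper case in the human tables). All 40 were listed and passed the filter on low counts in every table, so the counts below cover every member. They comprised Myc, 6 genes of RNA polymerase I transcription, 3 of the box C/D and 3 of the box H/ACA small nucleolar ribonucleoproteins (snoRNPs), 4 nucleolar shuttling and scaffold proteins, 2 nucleolar RNA helicases, 13 factors of small subunit assembly and 8 of large subunit assembly.

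MYC is a transcription factor that binds E-box sequences together with MAX and drives growth genes, among them many that build ribosomes. Ribosome building starts in the nucleolus, where RNA polymerase I copies the ribosomal DNA, snoRNPs modify the transcript, and successive sets of assembly factors fold and cut it into the small and large subunits. ERK signalling, which MEK switches on, is known to raise MYC and RNA polymerase I activity.

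The series holds 34 RNA-seq libraries, 2 for each of 17 groups. They came from mouse lung organoids (3154 and 1027B), a mouse lung cell line (3311) and the human lung adenocarcinoma lines H358 and H1651. The study asked how the lineage regulator HNF4α and inhibitors of growth signalling change these cells. The 3154 organoids carried p53frt, Rosa-FSF-CreERT2 and Hnf4aflox alleles, and 4-hydroxytamoxifen (4OHT) activates the CreERT2 recombinase so that Hnf4a is removed. In the first experiment they received 4OHT (2 mM per the labels) or ethanol for a 2-day exposure and were harvested 2 weeks later. In the second they received ethanol or 4OHT, each with vehicle or 3 nM MRTX1133, a small-molecule inhibitor, at 48 hours. The 48 hours are the time labelled for every group of that experiment and are not read here as the time since 4OHT. No group received 4OHT without the Hnf4aflox alleles. Changes on deletion therefore cannot be told apart from effects of 4OHT or of the recombinase. The 1027B organoids and 3311 cells carried p53frt, Rosa-FSF-CreERT2, Foxa1flox and Foxa2flox alleles, and the labels name no step that removes either Foxa gene. They were sampled after 48 hours, 1027B with vehicle, trametinib (a MEK inhibitor, 10 nM) or MRTX1133 (20 nM), and 3311 with vehicle or 50 nM trametinib. The 2 human lines were compared at 48 hours with and without 20 nM trametinib. H1651 with a lentiviral, doxycycline-inducible HNF4α construct was also compared after 7 days with and without 1 µg/mL of the inducer, and only the doxycycline libraries carry the overexpression label. Each line gives results for that line alone, and nothing in the labels says that its replicates came from separate cultures or animals, so the p values measure the spread between these libraries, which may be technical.

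Total counts ran from 19692517 to 45284286 per library, and the 40 members together took between 0.275% and 0.956% of them. The epithelial markers Epcam, Cdh1, Krt8, Krt18 and Krt19 summed to between 3601 and 10911 CPM in every library. Fibroblast markers summed to at most 143, endothelial markers to at most 21.2 and blood and immune markers to at most 38.4 CPM. In H1651 nearly all of the epithelial sum was KRT8 and KRT18. Group means there ran from 1.66 to 3.27 CPM for EPCAM, 6.72 to 8.22 for KRT19 and 50.7 to 80.0 for CDH1. Those of the fibroblast marker COL1A1 ran from 54.3 to 81.0 CPM. Alveolar markers ranged from 24.9 CPM in H1651 to 16544 CPM in 3154. In 3154 the Hnf4a level after 4OHT was 16.4% of that in ethanol at 2 weeks and 22.1% at 48 hours, and doxycycline took HNF4A in H1651 from 41.5 to 95.6 CPM. H358 held no HNF4A counts in any of its 4 libraries. Levels are given as CPM, the read count scaled to library size with TMM factors, and changes as log2 fold change of treated against control with its standard error (SE). A gene was called when the Benjamini-Hochberg adjusted p of edgeR's quasi-likelihood test, over all genes of its table, was under 0.05. The tables were scaled separately, so levels are compared within a table. In these bulk cultures, fewer cells of a kind and less RNA per cell cannot be told apart.

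Promoter sequence was examined because MYC with MAX binds the E-box CACGTG and the variant CACGCG. RefSeq windows of the mouse genome (GRCm38.p6), from 250 bases before to 50 after a start site, matched 34 of the 40 members by symbol; none was found for Myc, Fbl, Npm1, Bop1, Rrp12 and Rrs1. On either strand, CACGTG lay in a window of 8 of the 34 members (23.5%), of 11.1% of the 11968 genes tested in a mouse table that have a window, and of 8.09% of all 27025 genes. CACGCG was found for 11 members (32.4%), against 18.7% of the tested genes and 10.5% of all, and at least 1 of these strings for 18 members (52.9%), against 27.4% and 17.2%. These matches describe the letters only. The 250 bases before the start of 5 members are shown, 5′ to 3′ on the gene's own strand, with CACGTG and CACGCG (or CGCGTG, its reverse complement) in capitals. Rrn3, the factor that recruits RNA polymerase I, and Nop2, a methyltransferase of the large subunit, hold CACGTG. Polr1c and Nolc1 hold CACGCG, and Ncl, one of the members called lower most often, holds neither.
Rrn3: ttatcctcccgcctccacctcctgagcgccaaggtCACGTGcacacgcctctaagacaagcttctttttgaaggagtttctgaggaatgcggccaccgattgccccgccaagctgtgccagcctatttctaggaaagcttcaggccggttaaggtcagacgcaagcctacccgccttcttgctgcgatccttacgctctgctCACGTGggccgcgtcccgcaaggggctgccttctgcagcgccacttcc
Nop2: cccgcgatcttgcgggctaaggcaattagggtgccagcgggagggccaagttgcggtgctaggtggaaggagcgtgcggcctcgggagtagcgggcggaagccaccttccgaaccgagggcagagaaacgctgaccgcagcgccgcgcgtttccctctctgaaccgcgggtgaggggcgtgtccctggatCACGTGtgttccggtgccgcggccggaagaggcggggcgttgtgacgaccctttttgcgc
Polr1c: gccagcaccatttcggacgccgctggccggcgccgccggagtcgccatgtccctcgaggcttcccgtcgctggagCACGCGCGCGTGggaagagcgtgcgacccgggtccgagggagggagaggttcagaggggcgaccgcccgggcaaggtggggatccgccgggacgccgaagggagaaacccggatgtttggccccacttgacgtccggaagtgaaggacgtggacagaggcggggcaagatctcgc
Nolc1: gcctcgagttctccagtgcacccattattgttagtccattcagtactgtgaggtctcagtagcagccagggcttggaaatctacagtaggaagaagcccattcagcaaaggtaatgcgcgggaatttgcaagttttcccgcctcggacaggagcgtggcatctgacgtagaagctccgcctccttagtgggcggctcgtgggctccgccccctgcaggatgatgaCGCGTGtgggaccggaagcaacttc
Ncl: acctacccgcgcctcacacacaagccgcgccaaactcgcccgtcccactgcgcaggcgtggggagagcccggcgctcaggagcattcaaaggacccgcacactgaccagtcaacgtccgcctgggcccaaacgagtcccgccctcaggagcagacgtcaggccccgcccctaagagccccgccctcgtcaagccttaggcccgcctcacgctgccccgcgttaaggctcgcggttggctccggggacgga
The Rrn3 window is chr16:13780449-13780698 on the plus strand, with matches that begin 215 and 48 bases before the start. The Nop2 window is chr6:125131633-125131882 on the plus strand, with its match 60 bases before the start. That of Polr1c is chr17:46248046-46248295 on the minus strand, where CACGCG and its reverse complement adjoin 175 and 169 bases before the start. Nolc1 is read from chr19:46075597-46075846 on the plus strand, with its match 25 bases before the start, and Ncl from chr1:86359456-86359705 on the minus strand.

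Myc itself (ENSMUSG00000022346, chr15:61985391-61990374 on the plus strand of GRCm38; ENSG00000136997 in human) fell with trametinib in H358 and 1027B and rose on Hnf4a deletion in 3154 at 48 hours. In H358, MYC stood at 44.9 and 52.8 CPM with vehicle and at 18.6 and 17.2 CPM with trametinib, a log2 change of -1.44 (SE 0.13, adjusted p 0.000111) that left 36.7% of the vehicle level. Both treated libraries lay far below both controls. In 1027B, Myc stood at 64.5 and 47.9 CPM with vehicle, at 30.5 and 30.7 CPM with trametinib and at 50.4 and 31.4 CPM with MRTX1133. The trametinib libraries lay below both controls (log2 change -0.88, SE 0.24, adjusted p 0.0375, and 0.00218 with the replicate block), whereas the MRTX1133 libraries overlapped the controls (-0.46, adjusted p 0.312, and 0.0514 with the block). The MRTX1133 value was -0.84 without MRTX1133 replicate 1, -0.14 without MRTX1133 replicate 2 and -0.23 without vehicle replicate 1, and was called in none of these fits. The trametinib call in 1027B was lost when any 1 of the 4 libraries was left out, with adjusted p from 0.0507 to 0.158.

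In 3311, Myc stood at 93.6 and 125 CPM with vehicle and at 81.1 and 106 CPM with trametinib, and the groups overlapped (log2 change -0.23, adjusted p 0.386). The change was -0.004 without vehicle replicate 2 and -0.44 without trametinib replicate 2, and it was not called in either fit. MYC in H1651 stood at 40.5 and 45.7 CPM with vehicle and at 32.4 and 37.2 CPM with trametinib, without overlap. The change of -0.31 was not called without a replicate block (adjusted p 0.999). It was called with a block, in the fit given in the closing section. In 3154 at 48 hours, Myc stood at 23.1 and 40.4 CPM in ethanol, at 27.1 and 35.8 CPM in ethanol with MRTX1133, at 57.4 and 62.2 CPM in 4OHT and at 54.6 and 50.4 CPM in 4OHT with MRTX1133. All 4 libraries given 4OHT lay above all 4 given ethanol. The rise on deletion was called with vehicle (log2 change 0.91, SE 0.26, adjusted p 0.0295) and missed the threshold with MRTX1133 (0.74, SE 0.25, adjusted p 0.0642). It was called there by DESeq2 (adjusted p 0.0233) and by edgeR when only the 2 groups entered the fit (0.0169). The change with vehicle was 0.56 without ethanol replicate 1 and 1.36 without ethanol replicate 2. Its call was lost without ethanol replicate 1 (adjusted p 0.0554), without 4OHT replicate 1 (0.1), without 4OHT replicate 2 (0.142) and when only the 2 groups entered the fit (0.0784). MRTX1133 gave -0.01 with Hnf4a intact (adjusted p 0.993) and -0.19 with Hnf4a deleted (0.722). At 2 weeks the ethanol libraries stood at 76.8 and 95.1 CPM and the 4OHT libraries at 96.8 and 111 CPM, which did not overlap and was not called (0.27, adjusted p 0.306). That change was 0.11 without ethanol replicate 1, 0.17 without 4OHT replicate 2 and 0.435 without ethanol replicate 2. Doxycycline left MYC in H1651 at 26.8 and 29.0 CPM, around the 27.9 and 26.5 CPM without it (0.04, adjusted p 0.923).

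**Figure D1:**
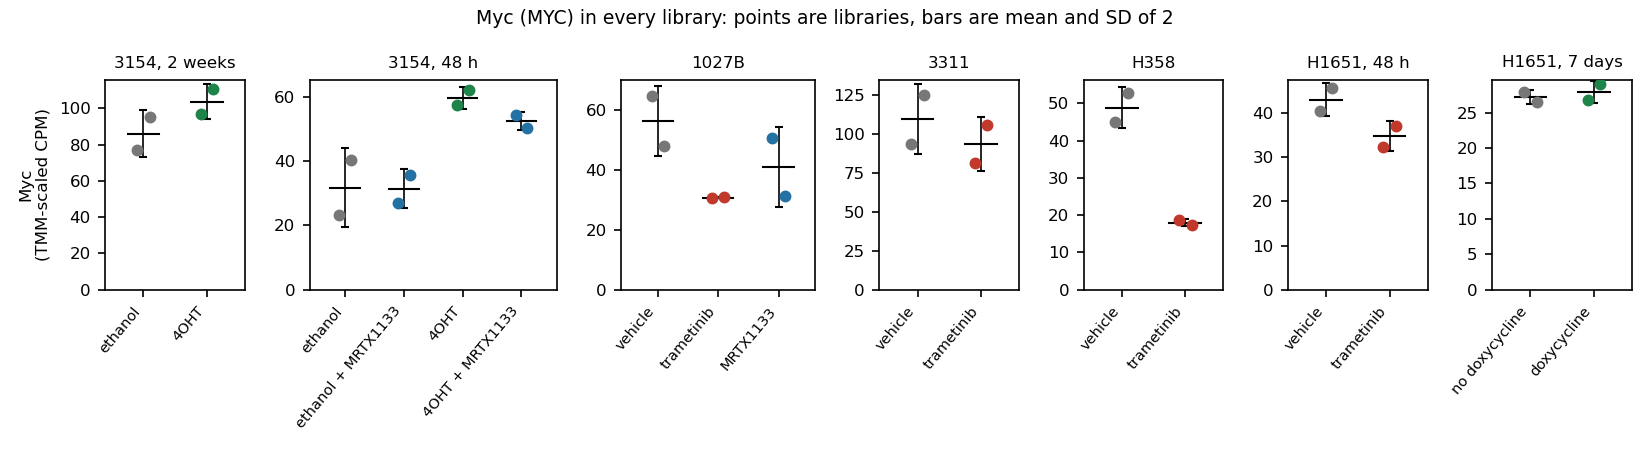
Myc (MYC in human) in each of the 34 libraries, in TMM-scaled CPM on axes that start at 0, by table and group. Points are libraries and bars are the mean and SD of 2. The H358 trametinib libraries sit at 18.6 and 17.2 CPM, below both controls, and the 3154 libraries given 4OHT at 48 hours sit above those given ethanol.

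Trametinib in H358 lowered 32 of the 40 members and raised none, beside 23.2% of all 18972 genes tested that fell and 23.5% that rose (46.8% called). The members' median log2 change was -0.65, against 0.02 over all genes tested, and 34 of the 40 had both treated libraries below both controls, as did 37.3% of all genes tested. Leaving out trametinib replicate 1 took the median to -0.41, and leaving out trametinib replicate 2 took it to -0.94. For the reach of the drug, DUSP6, a phosphatase gene switched on by ERK, went from 158 and 177 CPM to 0.645 and 1.22 CPM. Every one of the 14 proliferation genes also fell (median -1.72), the epithelial markers summed to between 5337 and 5534 CPM with vehicle and between 3601 and 3882 CPM with trametinib (EPCAM, KRT8 and KRT18 fell, while CDH1 rose from 448 to 930 CPM), and the fibroblast markers to between 32.8 and 37.2 and between 112 and 143 CPM. The endothelial markers summed to between 12.1 and 14.4 CPM and between 21.1 and 21.2 CPM, and the alveolar markers to between 119 and 134 CPM and between 174 and 178 CPM. The part of these lists in the members' change was not tested.

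By role, the fall in H358 covered all members of 4 classes: the 3 box C/D proteins, the 3 box H/ACA proteins, the 4 shuttling and scaffold proteins and the 2 helicases. FBL, the methyltransferase of box C/D snoRNPs, went from 225 and 254 CPM to 104 in each treated library (log2 change -1.20, SE 0.11, adjusted p 9e-05). NOP56, a core protein of the same particle, went from 266 and 319 CPM to 99.1 and 146 CPM (-1.26, SE 0.18, adjusted p 0.000888). DKC1, the pseudouridine synthase of box H/ACA snoRNPs, went from 202 and 228 CPM to 91.4 and 134 CPM (-0.93, adjusted p 0.00312). In each of these the treated libraries lay below both controls. NCL, NPM1, NOLC1 and GNL3 changed by -0.83, -0.73, -0.67 and -1.04, and the helicases DDX21 and DDX18 by -0.93 and -0.55.

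Of the 8 large subunit factors 5 fell in H358. BOP1, which forms a complex with PES1 and WDR12, went from 169 and 211 CPM to 55.6 and 94.8 CPM (log2 change -1.34, SE 0.23, adjusted p 0.0021). MRTO4, which acts in stalk assembly, went from 103 and 126 CPM to 36.4 and 57.6 CPM (-1.29, SE 0.21, adjusted p 0.00146). WDR12 went from 77.9 and 86.6 CPM to 29.5 and 40.4 CPM (-1.24, SE 0.16, adjusted p 0.000493), and PES1 changed less, by -0.50 (adjusted p 0.0167). All 3 genes of that complex thus fell, with no overlap between the groups. Small subunit factors fell in 11 of 13 cases, with changes over all 13 from -1.08 for RRP9 to -0.39. RNA polymerase I genes were split: POLR1E (-1.14, adjusted p 0.000497), POLR1B (-0.62, adjusted p 0.0142) and RRN3 (-0.47, adjusted p 0.0114) fell, while POLR1A, POLR1C and UBTF did not pass the test. UBTF, the factor that binds the ribosomal DNA, was the 1 member with a positive change, at 106 and 133 CPM before and 140 and 152 CPM after (0.28, adjusted p 0.102). It was called higher without vehicle replicate 2 (0.44, adjusted p 0.0387). NOP58, NOP14, NOP16, GAR1, PES1, UTP4, NAT10 and TSR1 were not called without trametinib replicate 1. Without vehicle replicate 2 this held for NOP14, NOP16, RRN3, GAR1, PES1, UTP4 and NAT10. Leaving out trametinib replicate 1 brought down the changes of the 8 genes that lost their call there, and of BYSL, DDX21, NOLC1 and POLR1B, by over 1.5 times, for example to -0.59 for DDX21, -0.42 for NOLC1, -0.38 for POLR1B and -0.32 for NOP16. Without trametinib replicate 2 the changes of NOP16 and NOP58 grew by over 1.5 times, to -1.22 and -0.94.

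Other genes of the same pathway fell with them in H358. Among genes not in the set, 21 of 37 further small subunit factors, 21 of 36 further large subunit factors, 5 of 9 further RNA polymerase I genes and 7 of 10 snoRNP assembly genes fell, and 1, 0, 0 and 1 rose. BRIX1, a large subunit factor, went from 132 to 55.5 CPM (log2 change -1.25, adjusted p 0.000292), and RUVBL1, part of the chaperone that builds snoRNPs, from 147 to 61 CPM (-1.27, adjusted p 0.000669). Of 20 other MYC targets tested 18 fell and none rose (median -1.04), with LDHA from 1189 to 211 CPM (-2.50, adjusted p 2.54e-05). In the MYC network, which holds MAX, paralogues of MYC and the proteins that compete with it or bind MLX, 5 of 11 genes tested rose and 3 fell. MXD4, a repressor that competes for MAX, rose from 41.4 to 181 CPM (2.13, adjusted p 1.1e-05), MYCL, a paralogue of MYC, from 3.17 to 22.5 CPM (2.83, adjusted p 3.24e-05) and MAX by 0.53 (adjusted p 0.00487), while MXD3, MXD1 and MLX fell, by 1.30, 0.85 and 0.48 on the log2 scale.

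**Figure D2:**
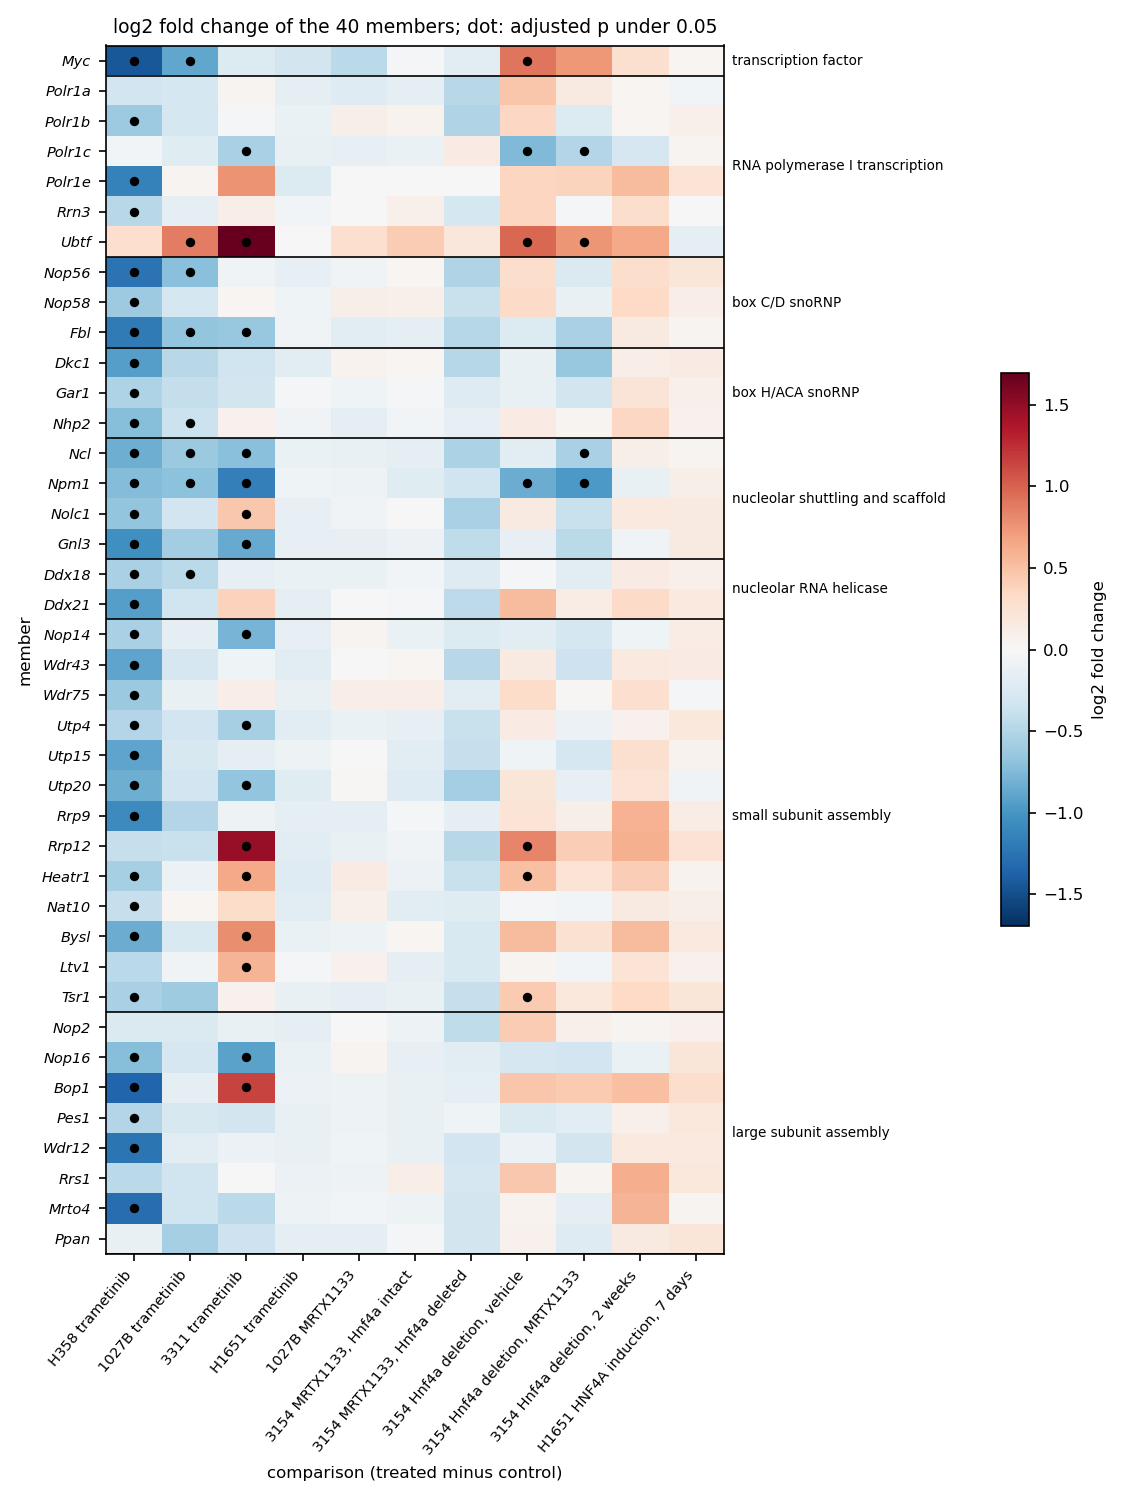
log2 fold change of each of the 40 members (rows, grouped by role) in the 11 comparisons of a treated group with its control (columns), on 1 colour scale from blue (lower) to red (higher). A dot marks an adjusted p under 0.05. The H358 trametinib column holds 32 dots, all lower, and Ubtf holds 4 dots, all higher.

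In 3311 the members did not move one way with trametinib: 7 rose and 9 fell, beside 19.4% and 19.6% of the 15224 genes tested (39% called). The members' median was -0.08 (-0.03 to -0.15 with 1 library left out) and that of all genes 0.01. Dusp6 fell by 1.87 on the log2 scale, 9 of 10 ERK output genes fell and 10 of 14 proliferation genes fell (median -1.12). The alveolar markers summed to between 4463 and 5115 CPM with vehicle and between 462 and 564 CPM with trametinib. Among them Sftpb fell from 4573 to 323 CPM and Nkx2-1 was not called (adjusted p 0.443). Sftpc and Napsa did not pass the filter on low counts. Of the 5 epithelial markers Krt18 fell (2503 to 928 CPM, adjusted p 0.00205), and the list summed to between 7535 and 9686 CPM and between 6158 and 7907 CPM. Csf1r, a macrophage receptor, rose from 8.18 to 24.0 CPM (adjusted p 0.023), and the blood and immune markers summed to between 4.68 and 11.7 CPM and between 20.2 and 27.7 CPM, with Ptprc at 0 in every library of this table. Of the fibroblast markers Col1a1 rose (1.72 to 5.31 CPM) and Pdgfra fell (13.6 to 7.58 CPM), and that list summed to between 21.5 and 26.2 CPM and between 17.3 and 17.5 CPM. The part of these lists in the members' changes was not tested. Among the falling members, Npm1, the abundant histone chaperone of the nucleolus, went from 1722 and 1311 CPM to 636 and 719 CPM (log2 change -1.16, SE 0.20, adjusted p 0.0051). Nop16 went from 37.9 and 32.5 CPM to 17.1 and 20.2 CPM (-0.91, adjusted p 0.00787), and Gnl3, the nucleolar GTPase nucleostemin, from 79.3 and 70.8 CPM to 37.8 and 44.7 CPM (-0.86, adjusted p 0.00556). The groups did not overlap for any of these. Ncl, Nop14, Utp20, Fbl, Utp4 and Polr1c were the other members that fell, by 0.55 to 0.79 on the log2 scale.

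The rising members of 3311 were led by Ubtf, from 42.0 and 51.8 CPM to 165 and 140 CPM (log2 change 1.70, SE 0.17, adjusted p 0.000847), the largest change of any member in any comparison here. Rrp12, an export and assembly factor, went from 4.27 and 5.54 CPM to 14.1 and 13.3 CPM (1.48, SE 0.24, adjusted p 0.00449). Bop1 went from 28.2 and 44.5 CPM to 79.9 and 81.1 CPM (1.15, SE 0.22, adjusted p 0.00734), the reverse of its direction in H358. In all 3 both treated libraries exceeded both controls. Nolc1, Ltv1, Heatr1 and Bysl also rose, by 0.46, 0.58, 0.65 and 0.79. Of the 16 calls, 8 remained without trametinib replicate 1: Fbl, Ncl, Nolc1, Polr1c, Utp4, Heatr1, Bysl and Ltv1 then missed the threshold. Nolc1 and Polr1c were also lost without vehicle replicate 1, and Nolc1, Utp4, Bysl and Ltv1 without trametinib replicate 2.

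Outside the set, the 3311 calls were again in both directions among small subunit factors (4 higher and 8 lower of 37) and RNA polymerase I genes (2 higher and 2 lower of 9), whereas large subunit factors gave 1 higher and 10 lower of 36 and snoRNP assembly genes 0 higher and 4 lower of 10. These stand beside the 19.4% of all genes that rose and the 19.6% that fell. Taf1d, a subunit of the promoter selectivity factor of RNA polymerase I, went from 119 to 41.6 CPM (log2 change -1.52, adjusted p 0.00274). Among 21 other Myc targets 9 fell and 1 rose, with Eif4ebp1, an inhibitor of cap-dependent translation, from 166 to 47.6 CPM (-1.80, adjusted p 0.000834) and Ppat, of purine synthesis, from 30.4 to 53.5 CPM (0.82, adjusted p 0.0103). Mxd4 and Max rose, by 0.92 and 0.70 (adjusted p 0.0123 and 0.00838).

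**Figure D3:**
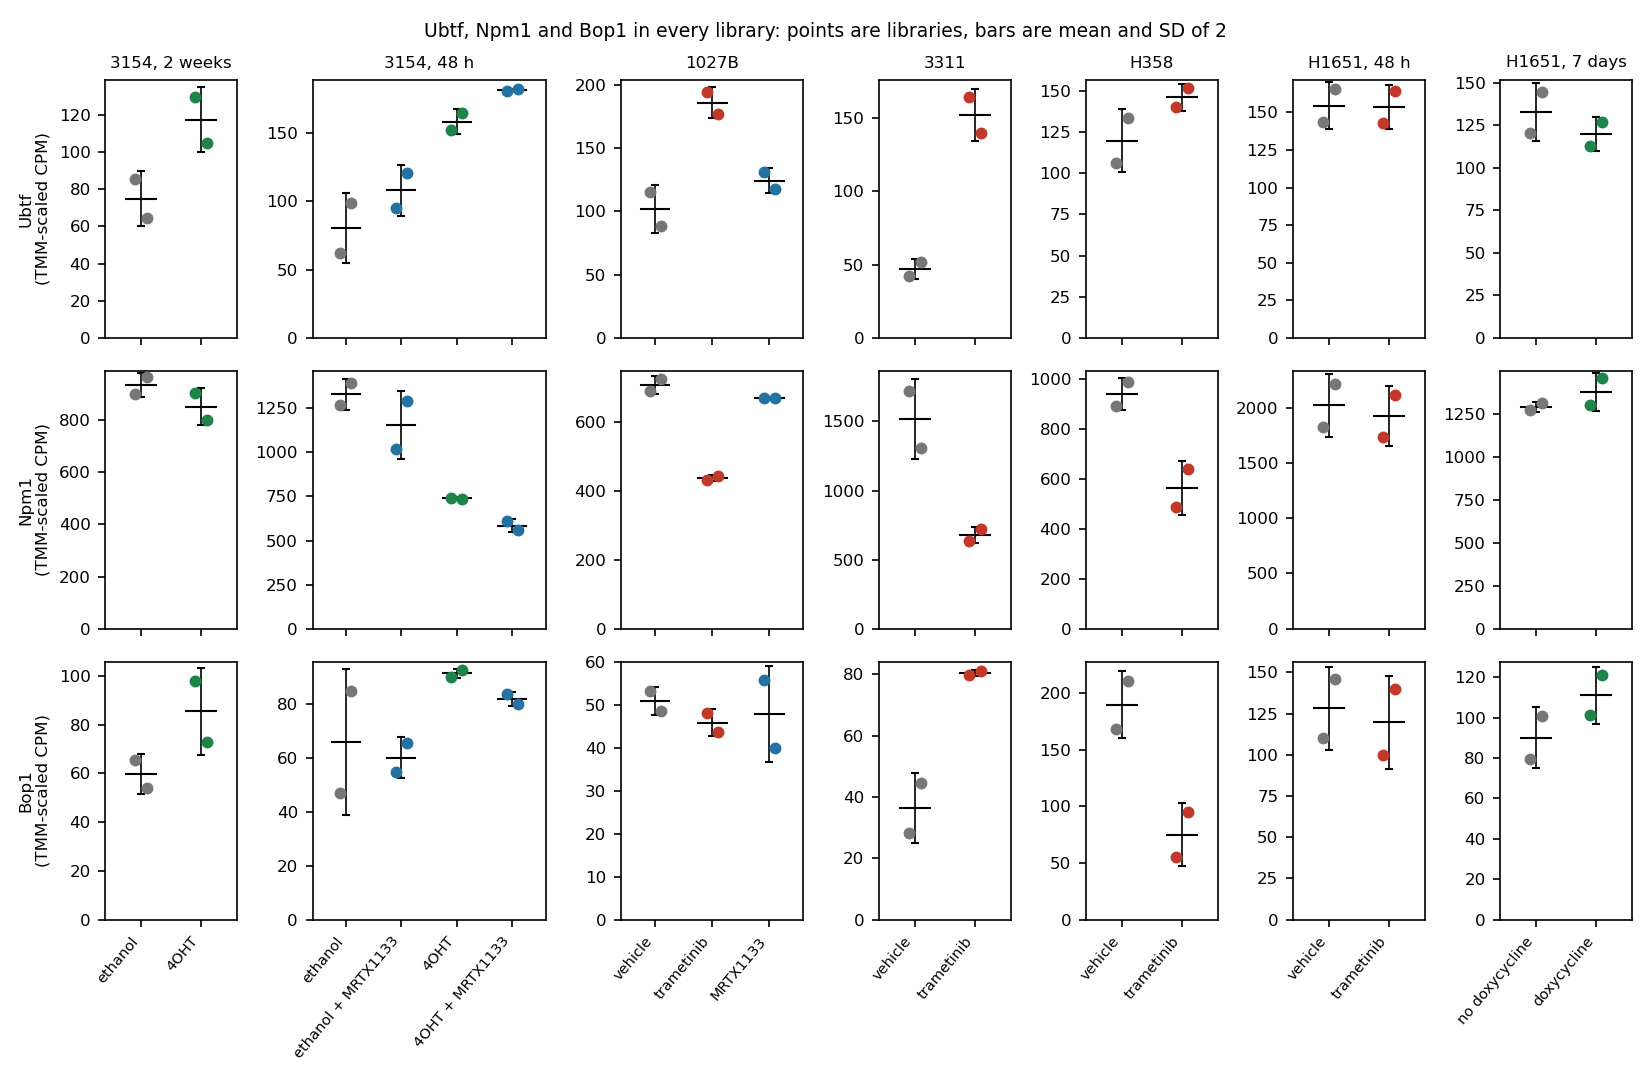
Ubtf, Npm1 and Bop1 (rows) in each of the 34 libraries by table (columns), in TMM-scaled CPM on axes that start at 0. Points are libraries and bars are the mean and SD of 2. Bop1 sits higher with trametinib in 3311 (79.9 and 81.1 CPM) and lower in H358 (55.6 and 94.8 CPM), each without overlap with its controls.

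In 1027B, trametinib lowered 7 members and raised 1, beside 13.2% and 13.5% of the 14555 genes tested (26.7% called). The members' median was -0.31, against -0.01 over all genes. Besides Myc, the members that fell were Nop56, Npm1, Fbl, Ncl, Ddx18 and Nhp2. Nop56 went from 205 and 176 CPM to 123 and 111 CPM (log2 change -0.70, SE 0.16, adjusted p 0.0205). Npm1 went from 687 and 724 CPM to 431 and 442 CPM (-0.69, SE 0.10, adjusted p 0.00451), and Fbl from 77.0 and 78.7 CPM to 48.2 and 49.2 CPM (-0.68, SE 0.09, adjusted p 0.00413). The treated libraries lay below both controls in each. Ubtf rose here too, from 115 and 88.7 CPM to 194 and 177 CPM (0.86, SE 0.15, adjusted p 0.00755).

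The replicate numbers of 1027B appear to mark pairs, and with them as a block 24 members fell with trametinib and 1 rose, beside 23% and 21.9% of all genes. Among those added were Gnl3 (log2 change -0.60, adjusted p 0.00558), Tsr1 (-0.59, adjusted p 0.00177) and Dkc1 (-0.46, adjusted p 0.00756). Without the block, leaving out 1 library brought the count of 8 down to 4 without vehicle replicate 1, 5 without vehicle replicate 2, 2 without trametinib replicate 1 and 4 without trametinib replicate 2. The share of all genes called came down with it, from 26.7% to 15.6%, 13.8%, 8.83% and 18.2%. Proliferation genes fell in 9 of 14 cases (median -0.77) and ERK output genes in 9 of 10. Alveolar markers summed to between 6297 and 10289 CPM with vehicle and between 2201 and 2749 CPM with trametinib, and moved both ways. Sftpb fell from 7899 to 991 CPM, while Sftpc rose from 65.7 to 1058 CPM and Nkx2-1 from 314 to 422 CPM. Napsa was not called. Epithelial markers summed to between 9027 and 9170 CPM and between 7418 and 8260 CPM, with Cdh1 higher and Krt19 lower, and blood and immune markers to between 1.46 and 2.28 CPM and between 2.47 and 3.16 CPM, with Csf1r higher and Ptprc lower. The part of these lists in the members' change was not tested. Of 21 other Myc targets 9 fell and 1 rose: Eif4ebp1 went from 193 to 75.2 CPM (-1.36, adjusted p 0.00905) and Shmt2, of one-carbon metabolism, from 91.2 to 39.6 CPM (-1.20, adjusted p 0.00258). Further small subunit factors fell in 5 of 37 cases and rose in 1, and large subunit factors fell in 6 of 36 and rose in none, where 13.2% of all genes fell and 13.5% rose. Mxd4 rose from 52.4 to 159 CPM (adjusted p 0.00111).

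MRTX1133 in 1027B gave no called member in edgeR's quasi-likelihood test, beside 6.27% of genes called (3.01% higher and 3.26% lower). None had an unadjusted p under 0.05 (23.2% of all genes had), and DESeq2 called 0 members and 11.2% of genes. The median was -0.06, and 26 of 40 changes were negative, but without MRTX1133 replicate 2 the median was 0.11 with 30 positive, without MRTX1133 replicate 1 it was -0.17 and without vehicle replicate 1 it was 0.04. Dusp6 fell by 1.20 on the log2 scale, and 5 of 10 ERK output genes and none of 14 proliferation genes fell. With the replicate block 2 members were called, Ubtf higher (log2 change 0.29, adjusted p 0.035) and Polr1a, the largest subunit of RNA polymerase I, lower (-0.22, adjusted p 0.0493), beside 11.4% and 12.7% of genes. The doses differ, and both treated groups share their controls.

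Set directly against each other, the MRTX1133 libraries stood above the trametinib libraries for most members: 38 of the 40 differences were positive, with a median of 0.27 against 0.01 over all genes. None was called by edgeR's quasi-likelihood test, which called 0% of all genes in this contrast. The unadjusted p was under 0.05 for 11 members and 16.2% of genes, and DESeq2 called 4 members higher and 1 lower, beside 2.43% and 2.47% of genes. Npm1 stood at 668 and 667 CPM with MRTX1133, above the 431 and 442 CPM with trametinib (0.61, SE 0.10, adjusted p 0.0822). Ubtf was the reverse, at 131 and 117 CPM against 194 and 177 CPM (-0.58, SE 0.14, adjusted p 0.151). With the block 9 members were higher with MRTX1133 and 1 lower, beside 7.75% and 6.33% of genes. The median was 0.12 without MRTX1133 replicate 1 and 0.41 without replicate 2. Proliferation genes stood higher with MRTX1133 in 14 of 14 cases (median 0.68) with none called. Alveolar markers summed to between 3021 and 4616 CPM with MRTX1133 and between 2201 and 2749 CPM with trametinib. Blood and immune markers summed to between 0.847 and 1.67 CPM and between 2.47 and 3.16 CPM. The part of these lists was not tested.

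In H1651 no member was called after trametinib by edgeR's quasi-likelihood test without a replicate block, nor was any of the 18277 genes (0%). One member, MYC, had an unadjusted p under 0.05, as had 3.27% of genes, and DESeq2 called 0 members and 0.257% of genes. All 40 changes were negative, from -0.31 for MYC to -0.01, with a median of -0.13 against -0.0027 over all genes, but the median was -0.0045 without vehicle replicate 2, -0.02 without trametinib replicate 1 and -0.25 without vehicle replicate 1. In 5 members (12.5%) both treated libraries lay below both controls, near the 14.1% of all genes for which this held. HEATR1, a factor of ribosomal DNA transcription and small subunit processing, stood at 412 and 474 CPM with vehicle and at 381 CPM in both treated libraries (-0.22, adjusted p 0.999). The ERK output genes had a median of -1.94, with DUSP6 from 49.8 and 51.8 CPM to 5.27 and 7.46 CPM (-3.00, adjusted p 0.149), while the 14 proliferation genes had a median of -0.04. The dose and time were those of H358, and the difference between the lines was not tested.

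**Figure D4:**
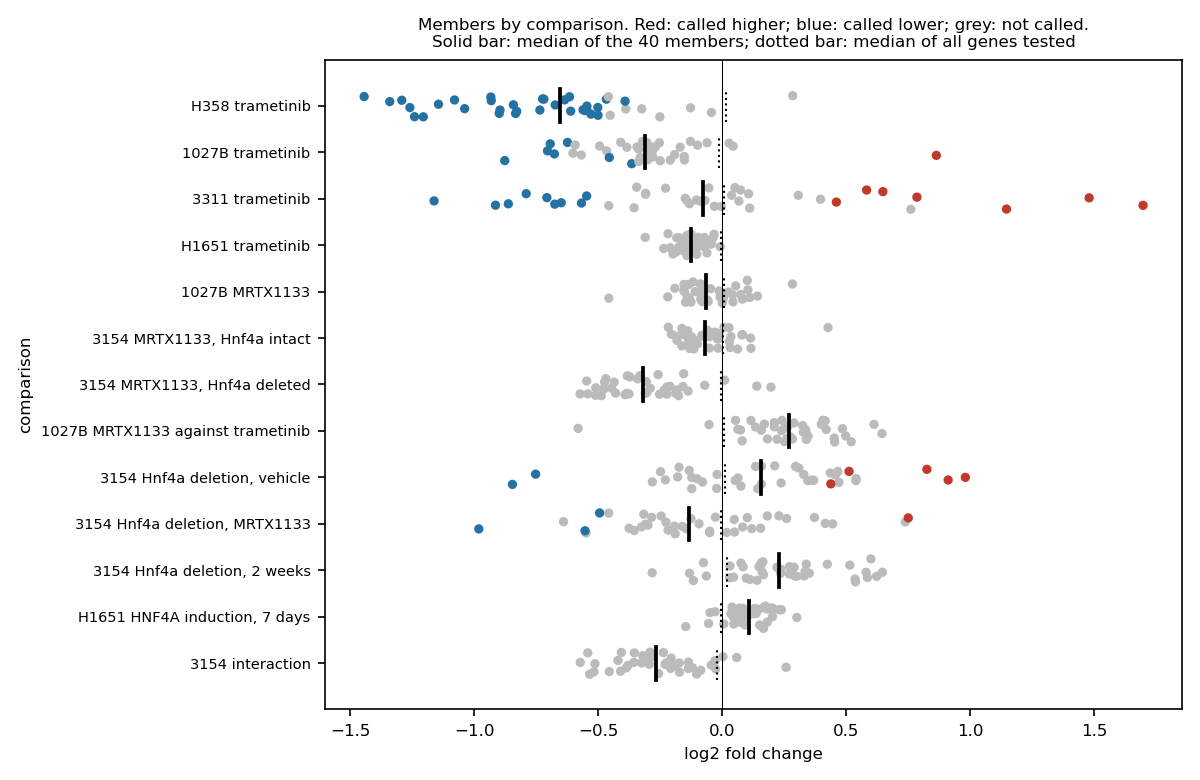
log2 fold change of the 40 members (points) in each comparison and in the interaction. Blue points were called lower, red points higher and grey points not called, the solid bar is the members' median and the dotted bar the median of all genes tested. In H358 the points centre on -0.65, whereas those of H1651 with trametinib lie between -0.31 and -0.01.

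In 3154 organoids at 48 hours, Hnf4a deletion with vehicle raised 5 members and lowered 2, beside 15.3% and 15.7% of the 15458 genes tested (31% called). In this fit members were called less often than genes at large, in either direction. The members' median was 0.16, against 0.01 over all genes. Ubtf rose from 62.1 and 98.4 CPM to 152 and 165 CPM (log2 change 0.98, SE 0.22, adjusted p 0.0123), next to Myc as above. Rrp12 rose from 17.8 and 31.0 CPM to 42.3 and 44.2 CPM (0.83, SE 0.25, adjusted p 0.0379), with changes of 0.48 without ethanol replicate 1 and 1.27 without ethanol replicate 2. It missed the threshold in the first of these fits, without 4OHT replicate 1, without 4OHT replicate 2 and when only the 2 groups entered the fit. Heatr1 rose from 57.8 and 54.7 CPM to 80.2 and 80.1 CPM (0.51, SE 0.13, adjusted p 0.0221). In none of these did the groups overlap. Heatr1 and Ubtf were not called without 4OHT replicate 1 or without 4OHT replicate 2, and Heatr1 was not called in the fit of 2 groups. Tsr1, an assembly GTPase-like factor, rose by 0.44 (adjusted p 0.0337), and 32.3% of its exon bases lie opposite another annotated gene. Npm1 fell from 1267 and 1393 CPM to 743 and 737 CPM (-0.85, SE 0.14, adjusted p 0.00409). Polr1c, a subunit shared by RNA polymerases I and III, fell from 152 and 124 CPM to 84.8 and 79.2 CPM (-0.75, SE 0.15, adjusted p 0.00714). Of 11 alternative fits, the call of Tsr1 held in 7, that of Polr1c in 9 and that of Npm1 in 11.

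The counts of called members with vehicle depended on single libraries. Without ethanol replicate 2, 17 members were higher and 2 lower, beside 18.1% and 18.9% of all genes in that fit, and the median was 0.43. Without ethanol replicate 1, 3 were higher and 3 lower, beside 13.7% and 14%, and the median was -0.07. Leaving out 4OHT replicate 1 or 4OHT replicate 2 left 1 called member, lower, beside 12.2% and 10.4% of genes called, and a fit of only the 2 groups called 3, beside 21.5%. The ethanol libraries differed from each other in many members, for example Nop56 at 96 and 179 CPM and Bop1 at 46.9 and 85.0 CPM. In the MYC network, Mxd1 and Mxi1 fell, by 1.35 and 1.67 on the log2 scale (adjusted p 0.000476 and 0.0148), and Mxd4 rose by 0.89 (adjusted p 0.00164). Eif4ebp1 fell from 376 to 76.5 CPM (-2.30, adjusted p 0.000214), among 6 of 21 other Myc targets that fell, with none that rose, and no proliferation gene of 14 was called. Of the 4 alveolar markers Sftpb and Napsa rose, and the list summed to between 6350 and 8624 CPM in ethanol and between 7569 and 8727 CPM in 4OHT, and its part was not tested.

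Under MRTX1133, deletion lowered 3 members and raised 1, beside 14.5% and 13.2% of genes (27.7% called). Here too members were called less often than genes at large, in either direction. The median was -0.13, and that of all genes -0.01, but without ethanol with MRTX1133 replicate 2 it was -0.04 and without replicate 1 of that group -0.17. Npm1 fell from 1017 and 1290 CPM to 610 and 559 CPM (log2 change -0.98, SE 0.14, adjusted p 0.00231). Ncl, which coats nascent ribosomal RNA, fell from 830 and 1045 CPM to 621 and 657 CPM (-0.55, SE 0.14, adjusted p 0.0242). Polr1c fell from 132 and 122 CPM to 97.1 and 83.6 CPM (-0.49, SE 0.15, adjusted p 0.0384), and Ubtf rose from 94.9 and 121 CPM to 181 and 182 CPM (0.75, SE 0.22, adjusted p 0.0365). The groups did not overlap in any of these. Npm1 was called under every alternative tried, whereas Ncl, Polr1c and Ubtf each lost their call when single libraries were left out, which brought the count of 4 to 2 without ethanol with MRTX1133 replicate 1 and to 1 without any other of the 4 libraries. The share of all genes called came down from 27.7% to 15.4% in the first of these fits and to between 10.9% and 17.4% in the others. Of 21 other Myc targets 9 fell, and 6 of 14 proliferation genes fell (median -0.56), whose part was not tested.

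MRTX1133 at 3 nM called no member in either state of Hnf4a by edgeR's test over all 4 groups, and Dusp6 was not called either (log2 change -0.09 intact and -0.60 deleted, adjusted p 0.933 and 0.198). With Hnf4a intact, edgeR's quasi-likelihood test called 0.349% of all genes (0.317% higher and 0.0323% lower), no member had an unadjusted p under 0.05 (11.8% of genes had) and DESeq2 called 0 members and 2.13% of genes. The members' median was -0.07, but -0.27 without ethanol replicate 1 and 0.21 without ethanol replicate 2. With Hnf4a deleted, the same test called 4.64% of genes (2.1% higher and 2.54% lower), 13 members (32.5%) and 20.4% of genes had an unadjusted p under 0.05, and DESeq2 called 3 members (7.5%), all lower, beside 8.68% of genes (4.73% lower and 3.95% higher). There the median was -0.32 with 37 of 40 changes negative, and 36 members had both treated libraries below both controls, as did 33.2% of all genes tested. Ncl stood at 934 and 926 CPM in 4OHT and at 621 and 657 CPM in 4OHT with MRTX1133 (log2 change -0.54, SE 0.14, adjusted p 0.0759). Polr1b, a catalytic subunit of RNA polymerase I, stood at 46.1 and 45.6 CPM and then at 29.6 and 34.7 CPM (-0.51, SE 0.15, adjusted p 0.094). When only these 2 groups entered the fit, 22 members were called, all lower, beside 13.4% of all genes called lower and 13% called higher. In this contrast 6 of 14 proliferation genes fell (median -0.78), and in the contrast with Hnf4a intact none did (median -0.06). The 4 alveolar markers summed to between 7569 and 8727 CPM in 4OHT and between 12253 and 16544 CPM in 4OHT with MRTX1133, where Sftpc rose and Sftpb fell. With Hnf4a intact they summed to between 6350 and 8624 CPM and between 10604 and 13469 CPM, with none called. The part of these lists in the members' changes was not tested.

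The difference between these responses was tested as the interaction of deletion with MRTX1133. No member and no gene was called (0%) by edgeR's quasi-likelihood test, 2 members and 7.44% of genes had an unadjusted p under 0.05, and DESeq2 called 0 members and 0.233% of genes. The members' median interaction was -0.27, with 37 of 40 negative, against -0.02 over all genes. Polr1b had the smallest p (-0.57, SE 0.21, adjusted p 0.594). Without ethanol replicate 1 the median was -0.06, with 26 negative, and without ethanol replicate 2 it was -0.51.

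**Figure D5:**
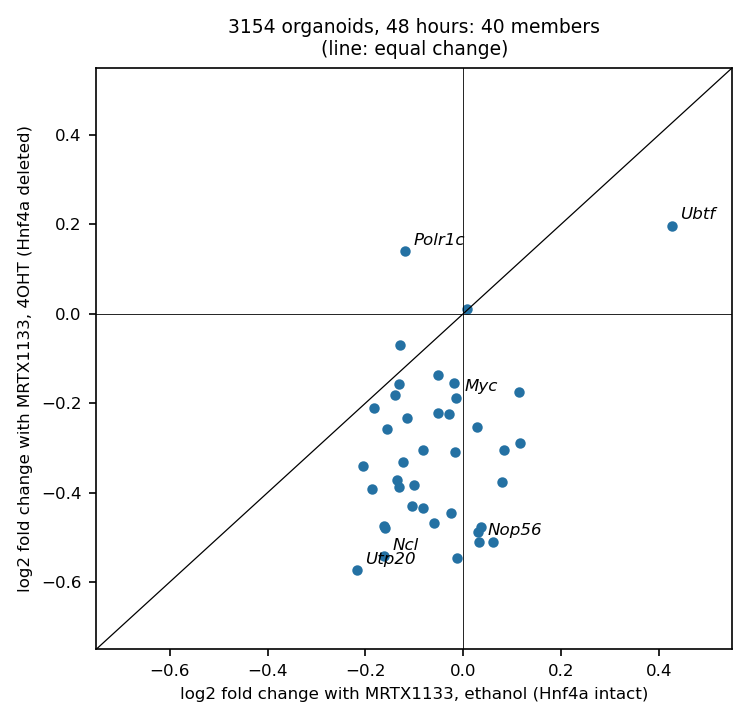
log2 fold change with MRTX1133 of the 40 members in 3154 organoids, with Hnf4a intact (ethanol, horizontal) and deleted (4OHT, vertical). The line marks equal change. The medians are -0.07 and -0.32, and edgeR's test over all 4 groups called no member in either state or in the interaction, whereas DESeq2 called 3 lower and a fit of 2 groups 22 lower with Hnf4a deleted.

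At 2 weeks after deletion no member of 3154 was called by edgeR's quasi-likelihood test without a replicate block. Of the 14492 genes it called 9.81% (4.03% higher and 5.78% lower). The fit with a block is given in the closing section. The unadjusted p was under 0.05 for 5 members and 28.7% of genes, and DESeq2 called 1 member, Ubtf, beside 15.9% of genes. The median was 0.23, against 0.02, with 35 of 40 changes positive. It was 0.35 without ethanol replicate 1 and 0.09 without 4OHT replicate 1. In 20 members both treated libraries lay above both controls, as they did in 31.5% of all genes tested. Ubtf stood at 85.4 and 64.7 CPM in ethanol and at 130 and 105 CPM after 4OHT (log2 change 0.65, SE 0.19, adjusted p 0.09). Rrp9, a U3 snoRNP protein, stood at 23.7 ± 2.80 CPM (SD, n = 2) and 35.6 ± 5.06 CPM (0.59, adjusted p 0.101). Both treated libraries were above both controls for these genes. Npm1, which fell on deletion in the separate 48-hour experiment, stood here at 901 and 966 CPM in ethanol and at 903 and 802 CPM after 4OHT, with overlapping groups. Without ethanol replicate 1, 4 members were called higher, beside 8.01% of all genes. Mycn, the neural paralogue of Myc, fell from 93.7 to 28.9 CPM (-1.69, adjusted p 0.00645), and the 14 proliferation genes, none of which was called, had a median of 0.66. Of the blood and immune markers, Csf1r fell from 25.6 to 4.29 CPM (adjusted p 0.0416), and the list summed to between 13.3 and 38.4 CPM in ethanol and between 3.61 and 5.51 CPM after 4OHT. Of the endothelial markers, Pecam1 fell from 5.48 to 2.12 CPM (adjusted p 0.0394), and that list summed to between 5.08 and 5.93 CPM and between 2.17 and 2.55 CPM. Ptprc and Cdh5 lay under 1 CPM in both groups on average and Tek was at 0 in ethanol. The part of these markers in the members' values was not tested.

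Induction of HNF4A in H1651 called no member by edgeR's quasi-likelihood test without a replicate block. Of the 17351 genes it called 1.42% (1.04% higher and 0.386% lower). The fit with a block is given in the closing section. The unadjusted p was under 0.05 for 6 members and 12.7% of genes, and DESeq2 called 0 members and 2.6% of genes. The changes were small, from -0.15 to 0.30, with 36 of 40 positive and a median of 0.11 (0.06 to 0.16 with 1 library left out) against -0.0037 over all genes. Among the epithelial markers KRT8 and KRT18 rose, and the list summed to between 4420 and 4422 CPM without doxycycline and between 5716 and 6204 CPM with it. Fibroblast markers summed to between 109 and 131 CPM without it and between 76.7 and 94.1 CPM with it. Blood and immune markers summed to between 11.3 and 11.9 CPM and between 9.05 and 9.82 CPM. No gene of these last lists was called, and the part of the lists was not tested. RRP12 stood at 108 and 112 CPM without doxycycline and at 126 and 134 CPM with it (log2 change 0.24, SE 0.07, adjusted p 0.202). TSR1 stood at 222 and 235 CPM and then at 256 and 270 CPM (0.20, SE 0.07, adjusted p 0.291). The treated libraries exceeded both controls in each. Further small subunit, large subunit and RNA polymerase I genes gave no call either, of 37, 36 and 9.

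Across the 11 comparisons of a treated group with its control, some of which share control libraries, Npm1 was called lower in 5, Ncl in 4, and Fbl and Polr1c in 3 each, with none of these called higher. Ubtf was called higher in 4 and lower in none. With the replicate block in 1027B these counts were 5 for Npm1, 4 for Ncl, 3 for Fbl, 4 for Polr1c and 5 for Ubtf. Without the block, each comparison that called a member called 13.2% to 23.2% of all genes lower and 13.2% to 23.5% higher. How many of all genes were called as often was not counted. Npm1, Ncl, Fbl, Polr1c and Ubtf were picked as the members called most often. These genes lie at chr11:33152287-33163206 (Npm1), chr1:86344719-86359400 (Ncl), chr17:46243920-46248054 (Polr1c) and chr11:102304560-102319742 (Ubtf), all on the minus strand, and chr7:28169710-28179269 (Fbl) on the plus strand of GRCm38. Nop2, Polr1a, Ppan and Rrs1 were called in none of the 11 by edgeR's quasi-likelihood test without the block. With it in 1027B Polr1a was lower with trametinib (adjusted p 0.00728) and MRTX1133 (0.0493) and Ppan with trametinib (0.0101). DESeq2, without a block, also called Ppan lower with trametinib in 1027B (adjusted p 0.0453). Nop2, whose promoter window with CACGTG is printed above, had changes from -0.44 to 0.44. Ncl, whose window held neither motif, had changes from -0.83 to 0.10.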

How the data were processed

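Poly(A) RNA was sequenced from 34 libraries with a stranded paired-end kit, per the labels' protocols. Values are raw counts of reads for each gene, in 7 tables that the authors deposited. The submitters' processing notes name cutadapt 3.5, STAR 2.7.6a and featureCounts 1.6.3 and the builds mm10, mm39 and hg38; which mouse build each table used is not given in the sources used here, so coordinates come from GRCm38 annotation. Columns of the 3311 table were assigned to that line by the name of the table.

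Each table was fitted separately on all genes with edgeR 4.0.16 (R 4.3.3), with filterByExpr (minimum count 10, minimum total 15), TMM factors, the quasi-likelihood F test, a prior count of 2 and Benjamini-Hochberg adjustment, and genes under 0.05 were called. All groups of a table shared 1 estimate of the spread. The scripts were tested on simulated data. Depth was 19692517 to 45284286 counts per library, and 2 libraries per group limit the precision.

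Myc, the 3 largest called rises and falls of each comparison and the members called most often were named by rule; other members were named to show a role after their values were seen. The members and gene lists were chosen with earlier results of these data known. The fits were repeated with DESeq2 1.42.0, with upper-quartile or RLE factors, with no filter or a minimum of 10 counts in every library, with a block for replicate number, on 2 groups at a time, and without each library in turn. A left-out library leaves 1 sample in a group, which is assumed to vary like the other groups. Same-numbered libraries of 1027B deviated together in each of 3 pairs of groups (r = 0.243, 0.372 and 0.414 over genes), so its numbers were taken to pair the libraries. One further allele of the mouse lines is not reported here.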

Additional observations from a re-analysis of the deposited data

Results flagged for a closer look

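With trametinib, 10 members had log2 changes of opposite sign in 3311 (mouse, 50 nM) and in H358 (human, 20 nM), with both treated libraries above both controls in 3311 and below both in H358. The log2 changes in 3311 and H358 were 1.15 and -1.34 for Bop1, 1.48 and -0.39 for Rrp12, and 0.76 and -1.14 for Polr1e. They were 0.79 and -0.84 for Bysl, 0.65 and -0.56 for Heatr1, 0.58 and -0.46 for Ltv1, and 0.46 and -0.67 for Nolc1. They were 0.40 and -0.93 for Ddx21, 0.31 and -0.39 for Nat10, and 0.11 and -0.47 for Rrn3. Of all 10540 genes tested under the same symbol in both lines, 12.9% had groups apart in these directions and 10.2% in the reverse ones, beside 25% and 0% of the members. Only Bop1, Bysl, Heatr1 and Nolc1 of these 10 were called in both lines (10% of the members, beside 3.73% of all these genes). Polr1e, Ddx21, Nat10 and Rrn3 were not called in 3311, and Rrp12 and Ltv1 were not called in H358. The differences between the lines were not tested, and line, species and dose differ together and cannot be told apart.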

How the results depend on the processing

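The count of called members in H358 (32) stayed within 1.5 times under every alternative run, from 24 to 36 with 1 library left out. Left-out libraries gave 8 to 18 in 3311, 2 to 5 for trametinib in 1027B, 0 to 4 for deletion at 2 weeks, 1 to 19 for deletion with vehicle at 48 hours and 1 to 2 for deletion under MRTX1133. DESeq2 called 1 member at 2 weeks, 5 for MRTX1133 against trametinib in 1027B and 3 for MRTX1133 with Hnf4a deleted. A fit of only the 2 groups compared called 22, 3 and 7 members for MRTX1133 with Hnf4a deleted, deletion with vehicle and deletion under MRTX1133, and upper-quartile factors called 2 in the last. With the replicate block, the counts were 25, 2 and 10 for trametinib, MRTX1133 and their difference in 1027B, 12 at 2 weeks, 14 with doxycycline and 10 for trametinib in H1651. The 12 at 2 weeks were all higher, beside 14.7% of all genes higher and 16.8% lower in that fit. With doxycycline 13 were higher and 1 lower, beside 9.28% and 8.28%, and with trametinib in H1651 all 10 were lower, beside 5.39% of genes lower and 4.9% higher. The block also called MYC with trametinib in H1651 (-0.31, adjusted p 0.000469), Myc on deletion under MRTX1133 (0.76, adjusted p 0.0316) and UBTF, higher, in H358 (0.29, adjusted p 0.00619). Same-numbered libraries correlated, over genes, with r = 0.427 at 2 weeks, 0.318 with doxycycline, 0.623 with trametinib in H1651, 0.318 in H358 and 0.126 in 3311. In 3154 at 48 hours r ran from -0.251 to 0.549. The labels name no shared source for a number, and with 1 pair of groups in each 2-group table these numbers were not taken to pair the libraries. The log2 change of Myc, not called in these comparisons, reversed with doxycycline to -0.0214 (range -0.0214 to 0.092 over left-out libraries) without doxycycline replicate 2. For MRTX1133 with Hnf4a intact it reversed to 0.0111 with upper-quartile factors, 0.0045 with the block, 0.15 without ethanol with MRTX1133 replicate 1 and 0.44 without ethanol replicate 2, with -0.36 the lowest over left-out libraries. In the interaction it reversed to 0.17 without ethanol replicate 1 and 0.04 without ethanol with MRTX1133 replicate 2, with -0.63 the lowest. The cause of these shifts was not tested.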

Other observations

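RNA polymerase III, which makes transfer RNA and 5S ribosomal RNA, shares subunits with RNA polymerase I. Of its 21 genes tested, 2 rose and 5 fell in H358, 4 rose and 3 fell in 3311, 1 rose and 1 fell with trametinib in 1027B, and 5 rose and 2 fell on Hnf4a deletion with vehicle. Over all genes tested, 23.5% rose and 23.2% fell in H358, 19.4% and 19.6% in 3311, 13.5% and 13.2% with trametinib in 1027B, and 15.3% and 15.7% on deletion with vehicle, so the counts of these 21 genes stand near or below the shares over all genes, apart from the 5 that rose on deletion. Polr3g, an alternative subunit found in proliferating and stem cells, fell by 1.30 in H358, 0.70 in 3311 and 1.05 with trametinib in 1027B on the log2 scale, and by 0.71 and 1.07 on deletion with vehicle and under MRTX1133. Of 10 genes of MYC protein turnover, 6 fell in H358, 2 in 3311, 3 with trametinib in 1027B and 4 on deletion with vehicle, and none rose in these. CIP2A, which protects MYC from a phosphatase, fell by 1.82 in H358, and Pim1, a kinase, fell by 1.66 on deletion with vehicle.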
